A study of Mus musculus with 8 samples.

Results

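The comparison is of gene levels between NIH3T3 cells 8 h into recovery from arsenite (RC8) and nontreated cells (NT). The NIH3T3 line derives from mouse embryo fibroblasts. RC8 cells received 250 μM sodium arsenite for 1 h and were then returned to medium without it for 8 h, and NT cells received none. Cells collected at the end of the 1 h of arsenite (AS) and 4 h into recovery (RC4) were used to sort the RC8 genes by their earlier levels. The cells of all conditions are labelled as proliferating, and each condition has 1 library of QuantSeq FWD, a protocol that reads mRNAs next to their poly(A) tails. The members are the 10441 genes that the table of RC8 and NT lists, out of 10690 genes listed in at least 1 of the 3 tables of AS, RC4 or RC8 with NT. The remaining 249 genes were not listed for RC8, and no statement is made on them.

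Arsenite binds thiol groups of proteins and raises oxidative stress. Cells respond with the transcription factor NRF2, which drives genes of glutathione and iron handling, with HSF1, which drives chaperones, with MTF1, which drives metallothioneins, and with ATF4, which drives amino acid genes when translation is blocked. Sterol genes answer to another factor, SREBP2, which is active when membranes are low in cholesterol. A poly(A) site (PAS) is the position where a transcript is cut and polyadenylated, and a gene with several PASs makes mRNAs with different 3′ ends.

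Summed over genes, the NT library had 22.6 M reads and the RC8 library 23.0 M, and the median gene had 737 and 750 reads. Every listed gene had 50 reads or more in both libraries. Levels are given as RPM, the reads of a gene per 1 M summed reads of that library in its table, and those of the 4 conditions always follow the order NT, AS, RC4 and RC8. In addition, log2 ratios were set to 0 at the median gene. Before that step the median gene stood at 0.01 for RC8, at -0.04 for AS and at -0.30 for RC4, so that log2 values of RC4 lie 0.30 above the plain ratio of RPM. A gene was called higher or lower at a ratio of 2-fold or more. With 1 library a side there is no replicate and no test, a difference is one between 2 libraries, and the 95% counting intervals cover the counting of reads only. Fewer cells and less RNA per cell cannot be told apart in such bulk samples. All 12 fibroblast markers on a list were listed in the table, and none of 28 markers of epithelial, endothelial, blood, neural or muscle cells was.

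At RC8, 308 genes were higher, which is 2.95% of those listed, and 375 genes were lower, which is 3.59%. Most differences were small. Of the higher genes, 258 were under 3-fold and 21 at 4-fold or more, and of the lower genes, 304 were under 3-fold and 24 at 4-fold or more. The gene nearest to the limit was at 2.01-fold inside and 1.998-fold outside on the higher side, and at 2.0-fold and 1.999-fold on the lower side. The higher genes had few reads in NT, with a median of 248.5 against 751.5 for the genes not called, and the lower genes had a median of 814.

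The deposited counts come in 2 columns per library. In the 599 called genes with reads in all 4 columns, the direction was the same in both pairs of columns, and 499 were past 2-fold in both pairs. These genes were called on the sum of the same columns, so that a like direction in both was largely given by the choice. Another 84 called genes, 47 higher and 37 lower, had 0 reads in 1 column. In all 117 genes of that kind the partner column held 50 to 82 reads, so that the sum may hold only part of the reads. In the pair of columns that did have reads, 13 of these 84 genes were past 2-fold and 8 were on the other side of 0. Values of such genes are given with this second ratio. The tables of AS and RC4 had 127 and 129 genes with 0 reads in a column. Their ratios come from the sums alone, also where they sort the RC8 genes by earlier levels.

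**Figure D1:**
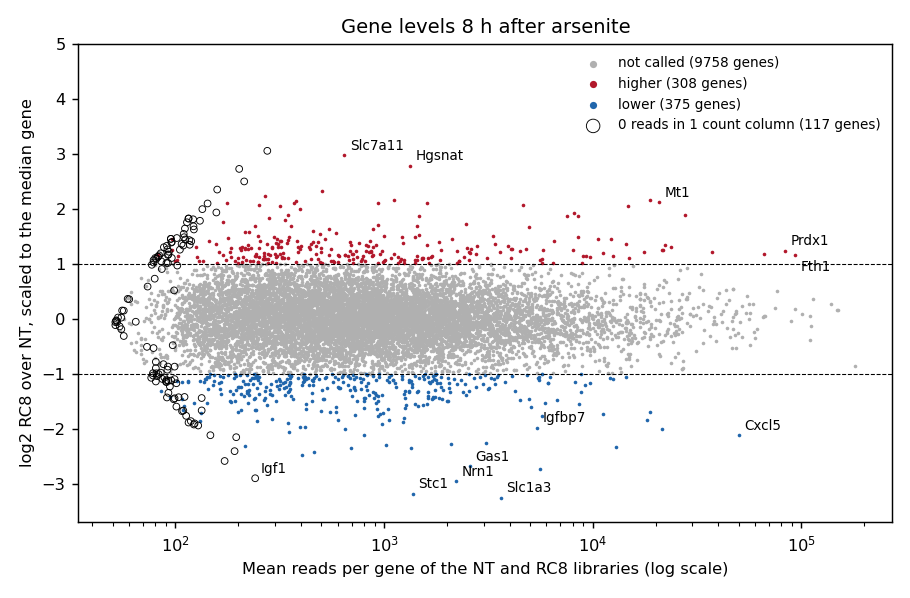
Log2 ratio of RC8 over NT for each of 10441 genes, scaled to the median gene, against the mean reads of both libraries on a log axis. Dashed lines mark 2-fold, and red and blue points are called genes with reads in all count columns, out of 308 higher and 375 lower genes. Open circles are 117 genes with 0 reads in 1 count column, which lie at the low end of reads and widen away from 0. Of the called genes, 47 higher and 37 lower ones are shown only as such circles.

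Earlier levels divided the called genes. A called gene was counted as still changed when it was past 2-fold in the same direction at RC4, and as newly changed when it was listed in all 3 tables and past 2-fold in neither AS nor RC4. The background of these calls was 75 higher and 306 lower genes in AS (0.718% and 2.93%), and 643 higher and 643 lower genes in RC4 (6.38% each). The 3 comparisons share the NT library. Among the higher genes 158 were still and 110 newly changed, which is 51.3% and 35.7%. Among the lower genes the order was the other way, with 110 still changed and 225 newly changed, or 29.3% and 60.0%. Both orders depend on how RC4 was scaled: from RPM without the step to the median gene, 131 higher genes were still and 137 newly changed, and 170 lower genes were still and 164 newly changed. Scaling by TMM factors kept both orders, with 158 still and 111 newly higher, and 115 still and 217 newly lower genes. Scaling by the upper quartile kept them too, with 166 and 138 higher, and 120 and 190 lower genes. A further 12 higher and 7 lower genes had been called in AS and not in RC4, and all 12 of the former had 0 reads in 1 count column. Another 2 higher and 6 lower genes had been called in the opposite direction before, and 26 higher and 27 lower genes were missing from the AS or RC4 table.

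Seen from RC4, 24.6% of its higher calls and 17.1% of its lower calls were called in the same direction at RC8. Of its 643 higher genes, 303 were within 1.5-fold of NT at RC8, and of its 643 lower genes 401 were. The still higher genes had a median log2 ratio of 1.67 at RC4 and 1.29 at RC8. In the ratio of RC8 over RC4, also set to 0 at its median gene, 116 of the 158 were below their RC4 level. Before that step its median gene stood at 0.27, so that genes near level in plain RPM count as below. Hgsnat, at 98.8 RPM in RC4 and 102 in RC8, is one of these, with a scaled log2 ratio of -0.22. The still lower genes stood at a median of -1.49 at RC4 and -1.41 at RC8. In the same scaled ratio, 59 of the 110 were above and 51 below their RC4 level, a split that also depends on the scaling. The newly changed genes were not all level before, since their median at RC4 was 0.58 for the newly higher and -0.44 for the newly lower genes. When newly changed genes were in addition required to be within 1.5-fold in AS and RC4, 52 higher and 118 lower genes were left. The higher genes listed in all tables took 2.13%, 2.46%, 6.36% and 5.36% of the reads of the 4 libraries.

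**Figure D2:**
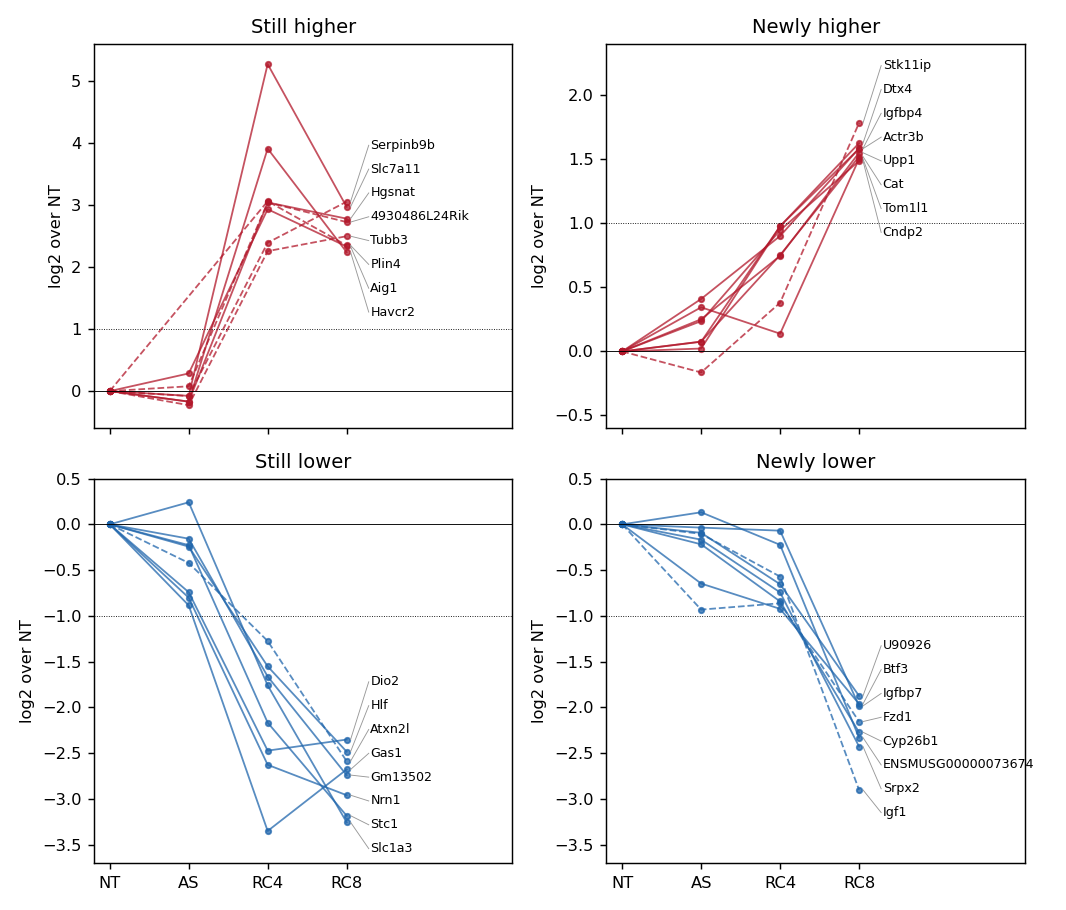
Log2 ratio over NT (y axis, scaled to the median gene of each table) in AS, RC4 and RC8 for the 8 highest and 8 lowest genes among the still and the newly changed ones with at least 200 reads in the higher library. Dashed lines are genes with 0 reads in 1 count column at RC8 or NT, and dotted lines mark 2-fold. Still higher genes such as Slc7a11 and Havcr2 were highest at RC4, and newly lower genes such as Igfbp7 left the NT level after RC4.

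Among genes with at least 200 reads in the higher library, the leading one with reads in all columns was Slc7a11, the cystine transporter that feeds glutathione synthesis. Slc7a11 had 6.33, 5.84, 199 and 49.9 RPM. It was thus level at the end of arsenite and far higher during recovery, with a log2 ratio of 2.97 at RC8 (2.72 to 3.23) after 5.28 at RC4. Hgsnat, a lysosomal enzyme of heparan sulfate breakdown, kept its RC4 level: it had 14.8, 12.7, 98.8 and 102 RPM, a log2 ratio of 2.78 (2.62 to 2.95). Aig1 had 7.26, 8.60, 45.9 and 36.7 RPM (log2 2.33, 2.09 to 2.58). Havcr2, an immune checkpoint receptor known from T cells, had 4.07, 3.52, 49.8 and 19.4 RPM (log2 2.24, 1.92 to 2.58). Ggct, γ-glutamylcyclotransferase of glutathione turnover, had 17.7, 15.3, 107 and 79.7 RPM (log2 2.16, 2.01 to 2.32). Afp, α-fetoprotein, was higher at RC8 than at RC4, with 6.11, 7.04, 13.3 and 27.0 RPM (log2 2.14, 1.87 to 2.42).

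A further 4 of the 12 highest genes rest on a single count column in NT. Serpinb9b, a serine protease inhibitor, had a log2 ratio of 3.06 from the summed columns and 2.07 from the column with reads. The same values were 2.73 and 1.63 for 4930486L24Rik, 2.5 and 1.3 for Tubb3, and 2.35 and 1.42 for Plin4. All 4 stayed past 2-fold in the column with reads, with smaller differences.

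Of the NRF2 targets, 12 of 25 listed members were higher and none was lower, against 2.95% and 3.59% of all genes. Their median log2 ratio was 0.81 at RC8 and 0.83 at RC4, after 0.12 in AS. Individual members went different ways between 4 h and 8 h. Hmox1, heme oxygenase, had 27.6, 57.8, 888 and 101 RPM, a log2 ratio of 1.87 (1.74 to 2.0) after 5.31 at RC4. Srxn1, sulfiredoxin, had 148, 141, 1434 and 355 RPM, and Txnrd1, thioredoxin reductase, had 165, 149, 693 and 333 RPM. These and Slc7a11 and Sqstm1 had come down from a peak at RC4 and were still past 2-fold.

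Other NRF2 targets had more RPM at RC8 than at RC4. Prdx1, a peroxiredoxin that removes hydrogen peroxide, had 2166, 2380, 4005 and 5133 RPM, a log2 ratio of 1.24 (1.23 to 1.26). The ferritin heavy chain gene Fth1 had 2518, 2845, 4625 and 5670 RPM in the same order. Its light chain partner Ftl1 had 563, 659, 1213 and 1341 RPM, and the entry Gm22133, with 12517 and 30526 reads in NT and RC8 against 12715 and 30835 of Ftl1, shares a PAS with it. With RC4 scaled to its median gene, Ftl1 and Fth1 were not above their RC4 ratio, at log2 1.25 after 1.41 and 1.17 after 1.18, and Prdx1 was at 1.24 after 1.19. Cat, catalase, had 33.1, 34.0, 45.3 and 95.4 RPM and was newly higher (log2 1.52, 1.4 to 1.64), as was Taldo1, transaldolase of the pentose phosphate pathway, at 1.26 after 0.94. Gsta4 (1.32) and Blvrb, biliverdin reductase (1.26), were still higher. In contrast Gclc and Gclm, the subunits of the enzyme that starts glutathione synthesis, had log2 ratios of -0.16 and 0.06 at RC8, Gclc after 1.85 at RC4. The range of the list ran from -0.55 for Tkt to 2.97 for Slc7a11.

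NRF2 binds the antioxidant response element, searched here as TGACNNNGC on both strands. RefSeq promoters (250 bases before to 50 after a gene's start, GRCm38.p6) were given for 20 of the 25 listed NRF2 genes, and 7 of the 20 promoter sets held the letters, or 35.0%, against 12.4% of all 32851 promoters in the table and 17.1% of the listed genes with a promoter. The letters were also in 4 of 12 cholesterol synthesis genes with a promoter (33.3%), where promoters of 12 of its 18 members are too few for a statement, and in 6 of 24 mitosis genes (25.0%). Of the 7 NRF2 genes with the letters, G6pdx, Gclm, Me1 and Pgd were not called, at log2 0.11, 0.06, -0.22 and 0.42. The stretches in the called genes Prdx1, Srxn1 and Txnrd1 are shown because their values are given above, with the motif in capitals. They lie at chr4:116685456-116685485, chr2:152105542-152105571 and chr10:82859104-82859133, with the motif starting at -133, 28 and -92 from the gene's start, and are written from the minus strand, on which the motif lies. A match is a description of letters and not a bound site.
Prdx1: cctacgggggaTGACTCAGCgctttccctg
Srxn1: gtgtctcactcTGACCTAGCtgcccactgc
Txnrd1: ccgtgtcagaaTGACAAAGCaaaaatccag
Over all called genes the same search was void, since only 477 of 683, or 69.8%, had a promoter in the table.

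Metallothioneins, small proteins that bind zinc, cadmium and arsenic, were also still higher. Mt1 had 339, 757, 2842 and 1476 RPM, a log2 ratio of 2.12 (2.08 to 2.16). Mt2 had 510, 1211, 5607 and 1905 RPM, a log2 ratio of 1.90 (1.87 to 1.93). They were among the few genes already past 2-fold in AS, with log2 ratios of 1.2 and 1.29. Slc30a1, the zinc exporter driven by the same factor MTF1, was at -0.59 at RC8 after 2.06 at RC4, so that it was on the other side of NT. The metal response element, TGCNCNC on both strands, a motif chosen after the data were seen, is present in 51.0% of all promoters of the table, in 64.6% of the listed genes with a promoter and in all 3 genes. The nearest match upstream of the start of Mt1 is shown, at chr8:94179055-94179084 (GRCm38.p6), on the plus strand, and that of Mt2 at chr8:94172557-94172586, on the minus strand, with the motif in capitals.
Mt1: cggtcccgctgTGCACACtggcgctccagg
Mt2: tgggacagagccTGCACACgccctcccccc

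Most heat shock chaperones called at RC4 were not called at RC8. The list holds cytosolic members and also Hspd1, Hspe1 and Hspa9 of mitochondria and Serpinh1 of the ER. At RC4, 15 of 23 listed members were higher, with a median log2 ratio of 1.46, and at RC8 3 were higher and 1 lower, with a median of 0.36. Over all genes, 6.38% were higher at RC4, and 2.95% were higher and 3.59% lower at RC8. Hspa1b, the inducible HSP70, had 42.3, 218, 2369 and 90.4 RPM, which left a log2 ratio of 1.09 (0.98 to 1.2) after 6.11. Hsp90aa1 was at 1.22 after 2.72. Cryab, the small heat shock protein αB-crystallin, had the highest ratio of the list at RC8, with 299, 317, 1591 and 1343 RPM (log2 2.16, 2.12 to 2.2). Hspa4l was newly lower at -1.05 (-1.13 to -0.98). Dnajb1, Hsph1, Bag3 and Hspa8, at log2 3.65, 3.07, 2.08 and 2.1 at RC4, were between 0.16 and 0.51 at RC8.

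Of the ubiquitin and autophagy genes, Sqstm1, an autophagy receptor that also binds the NRF2 inhibitor KEAP1, had 159, 189, 1199 and 581 RPM (log2 1.86, 1.81 to 1.92), and Zfand2a, an arsenite-inducible partner of the proteasome, was at 1.49 after 3.43. Ubb, a polyubiquitin gene, had the opposite sign, with 722, 921, 1391 and 341 RPM. It was above NT at RC4, past 2-fold only with the scaling to the median gene, and more than 2-fold below NT at RC8, with a log2 ratio of -1.09 (-1.13 to -1.05). None of 31 proteasome subunits was called, and 28 of them had a log2 ratio above 0, with a median of 0.34.

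ATF4 targets had gone down from 12 higher and 1 lower at RC4 to 2 higher and 1 lower of 23 at RC8, with medians of 1.14 and 0.11. These RC8 counts are 8.70% and 4.35% of a short list, beside 2.95% and 3.59% of all genes. Asns, asparagine synthetase, was at 1.02 and Aars, alanyl-tRNA synthetase, at 1.06. Cebpb, a transcription factor on this list, was lower at both times, with 225, 162, 53.5 and 47.0 RPM (log2 -2.26, -2.36 to -2.17). Among 20 genes of ER chaperones and the unfolded protein response, 17 were below 0, the median was -0.62, and 3 were called lower against 3.59% of all genes: Sdf2l1 (-1.41), Pdia4 (-1.25) and Pdia6 (-1.16). Hspa5, the main ER chaperone BiP, was at -0.58 without a call.

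Cholesterol synthesis was the list with the lowest median, and its calls were mostly new. All 18 listed members were below 0, 9 were called lower (50%, against 3.59% of all genes) and none higher. Their median log2 ratio went from 0.15 in AS over -0.43 in RC4 to -1.01 in RC8. Lss, lanosterol synthase, had 64.1, 64.8, 38.2 and 18.9 RPM (log2 -1.77, -1.93 to -1.61). Mvd, mevalonate decarboxylase, was the only one of the 9 called that was still and not newly lower, with 106, 114, 22.1 and 36.1 RPM (log2 -1.55, -1.67 to -1.44). Fdps, farnesyl diphosphate synthase, which shares a PAS with another entry, had 170, 205, 159 and 71.8 RPM, so that most of its difference came after RC4. Pmvk (-1.45), Nsdhl (-1.19), Insig1 (-1.15), Dhcr7 (-1.07) and Hsd17b7 (-1.03) were newly lower too. Srebf2, the gene of SREBP2, was at -0.95 and not past 2-fold.

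Some fibroblast and matrix genes were lower as well. Of the 12 fibroblast markers, 5 were called lower (41.7%, against 3.59% of all genes), none higher, and the median log2 ratio was -0.86. Col3a1, type III collagen, had 85.7, 77.2, 31.5 and 24.7 RPM (log2 -1.80, -1.94 to -1.67). Pdgfra, a receptor of platelet-derived growth factor, had 96.3, 65.8, 39.3 and 32.2 RPM (log2 -1.58, -1.71 to -1.46), and Pdgfrb was at -1.34 and Twist2 at -1.48. Col1a2 was at -1.1 and Col12a1 at -1.31, whereas Vim (-0.32) and Fn1 (0.06) were not called. In the opposite direction, the protease inhibitor gene Timp1 had 155, 173, 302 and 413 RPM (log2 1.41, 1.36 to 1.47). The list of 22 matrix genes had a median of -0.55, with 3 lower and 1 higher (13.6% and 4.55%, against 3.59% and 2.95% of all genes).

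Secreted signals were split. Of 13 listed chemokines and cytokines, 5 were lower and 1 higher, with a median log2 ratio of 0.14. These are 38.5% and 7.69%, against 3.59% and 2.95% of all genes. The chemokines Cxcl5, Ccl2, Cxcl1 and Ccl7 were lower at RC4 and at RC8, whereas Cxcl12 was at -0.53 and 0.14 without a call. Cxcl5 had 3602, 3067, 390 and 830 RPM (log2 -2.12, -2.15 to -2.1), Ccl2 was at -2.0, Cxcl1 at -1.84 and Ccl7 at -1.72. Ereg, an EGF family ligand, had 131, 104, 264 and 46.5 RPM, and another ligand of that family, Hbegf, was still higher at 1.1. The matricellular gene Ctgf, which is responsive to YAP and TGF-beta, had 103, 123, 472 and 329 RPM (log2 1.67, 1.6 to 1.74). The 20 listed genes of that group had a median of 0.19, with 2 higher and 1 lower (10% and 5%, against 2.95% and 3.59% of all genes). Among them Myl9 was called lower from 61 RC8 reads in 1 column only, and in that column its log2 ratio was -0.39.

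**Figure D3:**
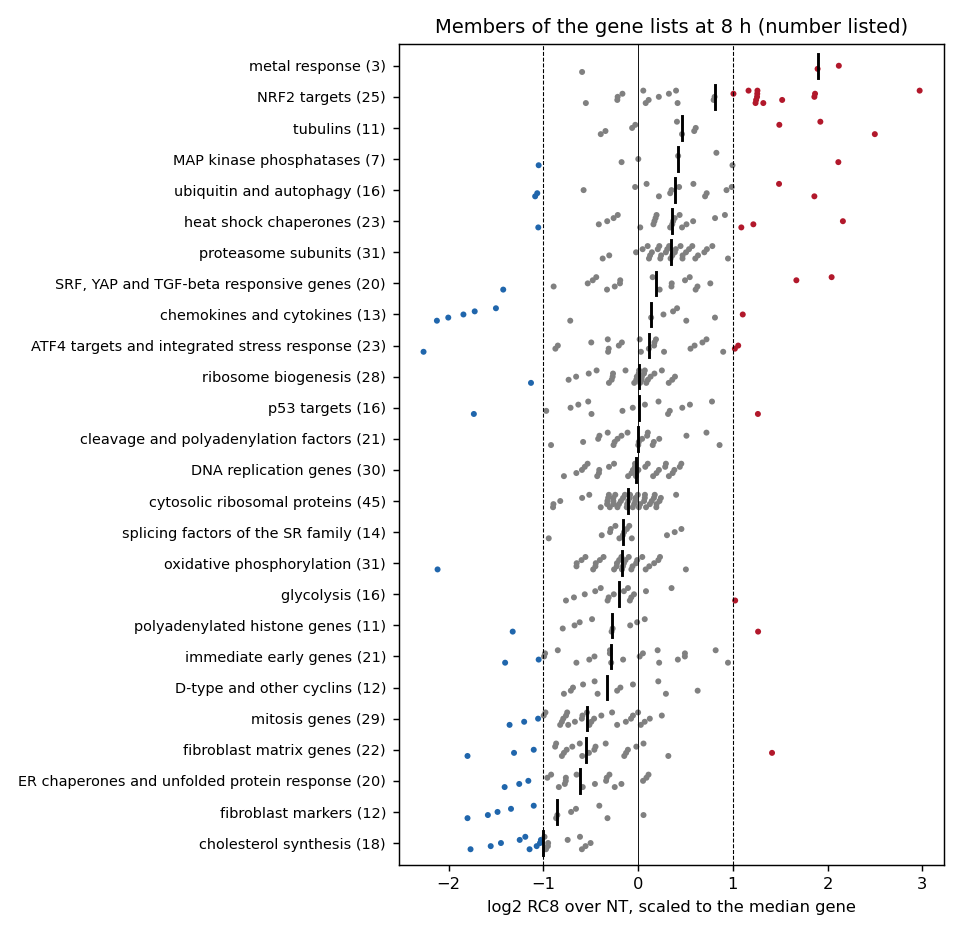
Log2 ratio of RC8 over NT of the listed members of 26 gene lists, with the number of members in brackets. Each point is a gene, red and blue points are past 2-fold, black bars are medians, and the lists are ordered by median, from cholesterol synthesis at -1.01 to the 3 genes of metal response at 1.90.

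Cell cycle genes were partly back. Of 29 mitosis genes, 18 of the 26 listed there were lower at RC4, with a median of -1.3, and at RC8 3 were lower, with a median of -0.54. The share of lower genes over all genes was 6.38% at RC4 and 3.59% at RC8. Birc5, survivin, had 563, 647, 198 and 246 RPM (log2 -1.2, -1.25 to -1.16), and Bub1 was at -1.36. Cdc25c, at -1.05, was not listed for RC4. Plk1, at -2.67 at RC4, was at -0.13, and Ccnb1, Cdk1 and Cdc20 were between -0.07 and 0.00. The CHR letters TTTGAA, a site of cell cycle genes, were present on either strand in 19 of the 24 mitosis genes with a promoter in the table. The share was 14.1% of the listed genes with a promoter, counted in the same way by gene, and 17.9% of all single promoters. None of 30 DNA replication genes was called at RC8, after 6 lower at RC4.

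Tubulin genes were called only on the higher side, in 3 of 11 (27.3%, against 2.95% of all genes). Tubb2a had 148, 188, 662 and 562 RPM (log2 1.92, 1.87 to 1.98), Tubb2b had 194, 236, 387 and 549 RPM (log2 1.49, 1.44 to 1.54), and Tubb3 is given above. Among phosphatases of MAP kinases, Dusp5 was still higher at 2.11 (1.99 to 2.25) and Dusp1 lower at -1.05 after 1.22 in AS. The immediate early gene Nr4a1 was newly lower at -1.4, and of the 21 genes on that list no other than Dusp1 and Nr4a1 was called. Of the p53 list Plk2 was higher at 1.26 and Sesn1 lower at -1.73, while Cdkn1a was at 0.78. In oxidative phosphorylation 1 of 31 genes was called, on the lower side, or 3.23%, near the 3.59% of all genes. It was Sdhd, the membrane anchor of succinate dehydrogenase, with 57.3, 52.9, 15.1 and 13.3 RPM (log2 -2.12, -2.30 to -1.94). Pfkp of glycolysis was at 1.02, Dkc1 of ribosome biogenesis at -1.13, and the histone genes H1f0, a pseudogene entry in GENCODE vM1, and Hist1h2bc at -1.32 and 1.27. No cytosolic ribosomal protein gene of 45 was called. None was called of 14 genes on the list of SR splicing factors, which also holds Tra2a, Tra2b, Clk1 and Clk4. The same was true of 12 genes on the list of cyclins, which also holds Cdkn1b and Cdkn2c. It was true as well of 21 genes on the list of cleavage and polyadenylation factors, which also holds Ppp1cb.

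The lowest gene at RC8 was Slc1a3, a glutamate transporter. It had 290, 333, 69.5 and 30.4 RPM, a log2 ratio of -3.26 (-3.37 to -3.14). Stc1, stanniocalcin, had 109, 90.9, 19.8 and 12.1 RPM (log2 -3.18, -3.37 to -3.00). Nrn1, neuritin, had 174, 96.8, 22.8 and 22.4 RPM (log2 -2.96, -3.10 to -2.83). All 3 were far lower at RC4 than in AS, and Slc1a3 and Stc1 were lower again at RC8. Gas1, a growth arrest gene, was instead above its RC4 level at RC8, with 196, 103, 15.6 and 30.8 RPM. Dio2, a deiodinase of thyroid hormone, was at -2.35, Hlf, a PAR family transcription factor, at -2.48 and Skiv2l, an RNA helicase of the exosome pathway, at -2.34. Gm13502, a pseudogene in GENCODE vM1, was at -2.74, and reads of a like gene cannot be told apart from its own here. Atxn2l was at -2.59 from the sum and at -1.61 in the column with reads, and Tlr2, which was not listed for RC4, at -2.41 and -1.42.

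Among the genes past 2-fold at RC8 and not before, some were so by the scaling of RC4: in plain RPM, Cyp26b1, Srpx2, Fzd1 and Btf3 were more than 2-fold below NT at RC4 already. Igf1, insulin-like growth factor, had 18.8, 17.0, 10.3 and 2.52 RPM. Its log2 ratio was -2.90 from the sum and -1.94 in the column with reads, so that it was past 2-fold in either. Igfbp7, a binding protein of the same growth factor family, had 380, 361, 295 and 96.3 RPM (log2 -1.98, -2.05 to -1.92) and was still near NT at RC4, at -0.07. Cyp26b1, which breaks down retinoic acid, had 154, 128, 69.5 and 31.9 RPM (log2 -2.27, -2.39 to -2.16), and Srpx2 had 34.5, 29.9, 16.7 and 6.44 RPM (log2 -2.43, -2.69 to -2.17). Fzd1, a Wnt receptor, was at -2.16 from the sum and -1.19 in the column with reads, Btf3 at -1.96 and U90926 at -1.87. ENSMUSG00000073674, a pseudogene in GENCODE vM1, was at -2.33.

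On the higher side the largest new differences were smaller. The medians were alike, at log2 1.17 for the 110 newly higher and -1.18 for the 225 newly lower genes. With a limit of 3-fold in all tables, 6 genes were newly higher and 46 newly lower. At that limit a gene between 2-fold and 3-fold at RC4 could count as new. Dtx4 had 18.8, 18.6, 30.1 and 58.3 RPM (log2 1.63, 1.47 to 1.79). Igfbp4, another binding protein of insulin-like growth factors, had 4.70, 6.06, 7.12 and 14.1 RPM (log2 1.58, 1.26 to 1.92). Upp1, uridine phosphorylase, was at 1.55, Actr3b at 1.58 and Cndp2, a dipeptidase that acts on cysteinylglycine, at 1.49. At RC4 the log2 ratio was between 0.75 and 0.98 for Dtx4, Igfbp4, Upp1, Actr3b, Cat and Cndp2. Tom1l1, at 1.5, was at 0.14 at RC4. Stk11ip, at 1.78 from the sum, was at 0.78 in the column with reads.

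PAS use was compared next in the same libraries. MAAPER assigns each gene's reads to its PASs, and a gene counted as changed when the fraction of any PAS differed by 10 percentage points or more between NT and RC8. Of 5357 genes with 2 or more PASs, 1440 were, or 26.9%. A single PAS was listed for 56.5% of the higher and 52.3% of the lower genes, against 48.3% of the genes not called. In the 134 higher genes with 2 or more PASs, 40 had a PAS change (29.9%, Wilson interval 22.8% to 38.1%). In the 179 lower genes 64 had one (35.8%, 29.1% to 43.0%), against 26.5% of the genes not called. Where both libraries had 200 reads or more of the gene, the shares were 27.2%, 33.3% and 25.0%. Large changes of 20 points or more were found in 12.1% of these lower genes, in 2.17% of the higher and in 4.12% of those not called. The median of reads in the smaller library was 587 for these lower genes, 896 for the higher and 955.5 for those not called, and the part of read numbers in the difference was not tested.

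When the reads of each PAS were taken as the gene's reads times the fraction, all PASs were past 2-fold with the gene in 60 of the 134 higher and 67 of the 179 lower genes. A PAS with the opposite sign was found in 6 and 17 genes, which the choice of genes by their 2-fold difference keeps low. The most used PAS differed between NT and RC8 in 10 of the higher genes (7.46%) and 24 of the lower genes (13.4%), around the 10.5% of genes not called. The summed fraction of PASs upstream of the 3′-most exon had a median change of -1.2 points in 23 higher genes and -0.40 points in 43 lower genes, against -1.27 in 1229 genes not called. Within the 3′-most exon the mean position was nearer to the start of the gene at RC8 in 75 of 112 higher genes and in 81 of 154 lower genes, with median shifts of -10.8 and -3.76 nt. In the genes not called it was so in 2427 of 4258, with a median of -5.45 nt.

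**Figure D4:**
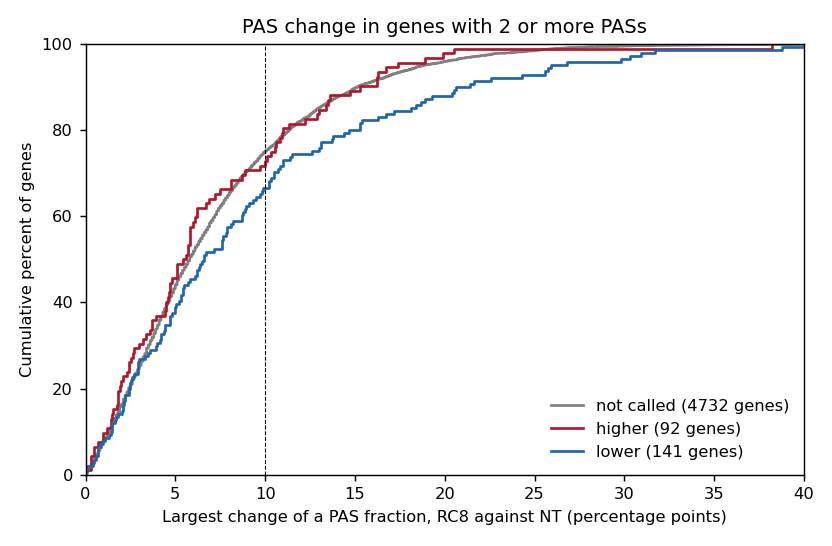
Cumulative percent of genes (y axis) by the largest change of a PAS fraction between NT and RC8 in percentage points (x axis, shown to 40), for genes with 2 or more PASs and 200 reads or more in both libraries. The curve of the 141 lower genes lies below that of the 4732 genes not called to the right of 10 points (dashed line), and the curve of the 92 higher genes lies close to the latter.

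Of the 12 highest and 12 lowest genes, 17 had 2 or more PASs, and 6 of them (35.3%) changed by 10 points or more, against 26.9% of all genes. These were Slc7a11, Nrn1, Dio2 (13.1 points), Hgsnat (10.3 points), and Tlr2 and Igf1 (36.0 and 17.0 points), which had only 62 and 58 reads in RC8. Slc1a3 had 69.2% of its reads at the distal of its PASs in NT and 69.3% in RC8, and Mt1 had 82.8% and 81.8% at its main PAS. Gas1 had 89.8% and 88.3%, and Stc1 64.0% and 66.2%. Of the 4 PASs of Slc7a11, the most proximal one, at position 50175834 of chromosome 3, had 11.9% of reads in NT (7.57% to 18.2%), 13.5% in RC4 and 35.7% in RC8 (33.0% to 38.5%). The most distal one, 6976 nt away, had 57.8%, 50.5% and 39.6% in these libraries and was the only PAS listed in AS. In NT the fractions rest on 143 reads.

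The 10 called genes with the largest changes at this read number were lower genes except Tubb2b. Nsmce3, a subunit of the SMC5/6 complex, had the largest change: its PAS at position 72016606 of chromosome 7 (mm9, minus strand) had 29.6% of reads in NT (27.1% to 32.3%), 95.6% in RC8 (93.2% to 97.2%), and 54.5% and 96.4% in AS and RC4. The other PAS lay 129 nt upstream. Taken per PAS, the log2 ratio of RC8 over NT was 0.20 at the former and -5.48 at the latter. As the reads were assigned, the difference thus lies at 1 of its 2 PASs. The reads of Nsmce3 overlap with those of another entry, Fam189a1, as described further on. A like split was seen in Hnrnpf, an RNA-binding protein gene, with PASs 718 nt apart: the proximal PAS had 21.3%, 38.1%, 51.9% and 51.1% in the 4 libraries, and its log2 ratio was -0.07 against -2.02 at the distal PAS. In Iars2, the mitochondrial isoleucyl-tRNA synthetase, the distal PAS had 22.4%, 19.6%, 48.9% and 61.2%, and it was level (-0.05) while the proximal one was at -2.5. Tubb2b had 9.35%, 43.4%, 4.67% and 47.5% at its distal PAS, without an order in time. In Nsmce3, Iars2, Nrn1 and Tubb2b the PASs lay 129, 102, 132 and 208 nt apart, and MAAPER has to place reads between such close sites by distance. Over the 83 called genes with a change of 10 points or more within the 3′-most exon, 37 had these PASs within 210 nt (44.6%), against 36.4% of 1098 genes not called.

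**Figure D5:**
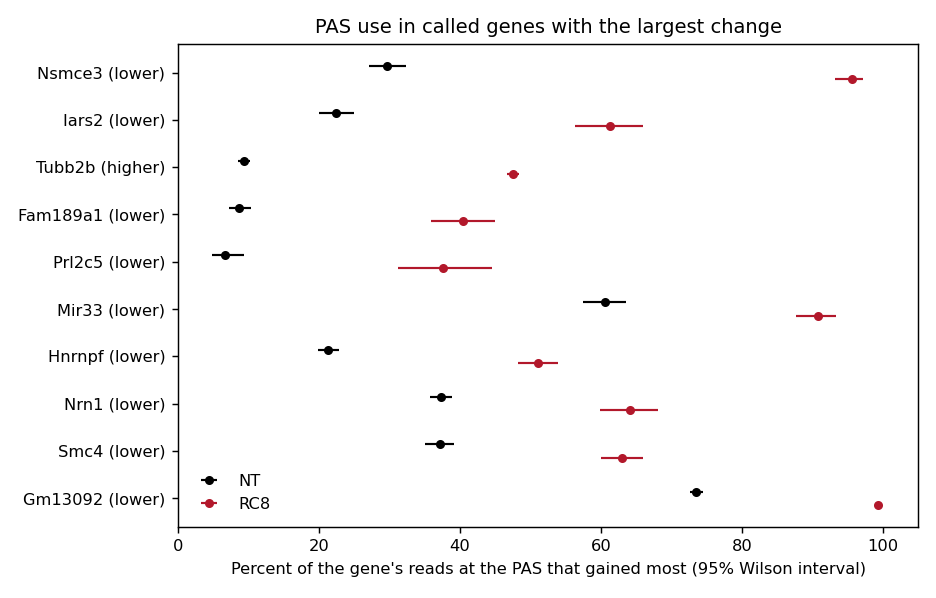
Percent of the gene's reads (x axis) at the PAS that gained most between NT (black) and RC8 (red) in the 10 called genes with the largest change and 200 reads or more in both libraries. Bars are 95% Wilson intervals, which cover the counting of reads only. The genes were chosen for this change, which runs from 25.7 points in Gm13092 to 66.0 points in Nsmce3.

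Nrn1 had 37.3%, 50.2%, 62.2% and 64.1% of reads at its distal PAS, with both PASs lower at RC8 (log2 -2.18 and -3.76), and Smc4, a condensin subunit, had 37.1% in NT and 63.0% in RC8 at the most distal of 3 PASs. Prl2c5, a prolactin family gene, had 6.74% and 37.6% at its PAS in the 3′-most exon, with the remainder at a PAS in an internal exon. The remaining 3 entries, and with them Nsmce3, are uncertain. Fam189a1 is listed with 2 intronic PASs that lie between and beside those of Nsmce3 on the same strand and has nearly the same reads (1179 and 445, against 1169 and 425), so that the reads of these entries cannot be told apart. Mir33, a microRNA gene within Srebf2, shares a PAS with Srebf2. Gm13092 is a pseudogene in GENCODE vM1. Among all called genes, 11 higher and 15 lower ones list a PAS that another gene also lists, and 10 and 25 are pseudogenes.

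The 30 bases that end at the PAS are shown for Nsmce3, Hnrnpf and Iars2, in which 1 PAS carried the difference, and for Nrn1, one of the lowest genes, as read from mm9 on the gene's strand (plus for Hnrnpf, minus for the others), with the poly(A) signal AATAAA in capitals where it is present. The first line of a pair is the PAS that gained in fraction.
Nsmce3 gained: actagttcctggggaaaAATAAAagtcttt
Nsmce3 lost: taaagagttttctaactttctaaacctaaa
Hnrnpf gained: ggtgatgcagggcatgggcgtgtcagctgc
Hnrnpf lost: aaAATAAAgactttttcacaatgactggca
Nrn1 gained: gaagtataaAATAAAagttattgtttgaaa
Nrn1 lost: gttaaatctaaaatagaatttaaaaaaaaa
Iars2 gained: tctgggaaactcccagcatatgatggtgaa
Iars2 lost: acactgaatatggttactttcaatgtggca
They lie at chr7:72016606-72016635, chr7:72016735-72016764, chr6:117874899-117874928, chr6:117875617-117875646, chr13:36817494-36817523, chr13:36817626-36817655, chr1:187110517-187110546 and chr1:187110619-187110648, in this order. The signal stood at the gained PAS in Nsmce3 and Nrn1, at the lost PAS in Hnrnpf and at neither in Iars2, and the lost PAS of Nrn1 ends in a run of A in the genome. Within 40 bases upstream, AATAAA was present at 37.0% of 100 PASs that gained 10 points or more in called genes, at 38.8% of 98 that lost as much and at 36.5% of all 14021 PASs of genes with 2 or more. The Wilson intervals of the first and second share, 28.2% to 46.8% and 29.7% to 48.7%, overlap. In genes not called, with more sites, the signal was at 40.4% of 1152 gained PASs (37.6% to 43.2%) and at 34.6% of 1188 lost PASs (31.9% to 37.4%).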

How the data were processed

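QuantSeq FWD libraries of NIH3T3 cells were used, 1 per condition. The authors trimmed reads with bbmap, mapped them to mm9 with STAR (2.5.2a per the submitters' processing notes) and ran MAAPER with PolyA_DB sites. The authors deposited raw counts of reads, in 2 columns per library whose origin is not given in the sources used here, and for each PAS the fraction of a gene's reads. Genes below 50 reads were left out by the authors and PASs below 5%, which limits statements on rare genes and sites. The deposited P values, RLD and RED scores are the authors' own comparisons and were not used. QuantSeq REV libraries were not used here.

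Both count columns of a library were added, divided by the table's sum and scaled to the median gene. Each table was scaled by itself with its own NT columns, so levels set side by side across tables carry that limit. Ratios have exact binomial (Clopper-Pearson) 95% intervals and shares Wilson 95% intervals. Reads have no molecular identifiers, so intervals cover counting error only. The code for ratios, calls and counting intervals was tested on simulated data, which bears on the arithmetic and not on the spread between cultures. Python 3.11.15, pandas 2.3.3, scipy 1.17.1 and, for TMM factors, edgeR 4.0.16 in R 4.3.3 were used. Annotation was GENCODE vM1 (mm9), promoters were from RefSeq (GRCm38.p6), and 7762 of 10441 listed genes matched one by symbol or an older symbol.

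The members, lists and rules were chosen with earlier results of these data known. Genes were named if they were (a) the 12 highest or 12 lowest with at least 200 reads in the higher library, (b) members of a list, (c) the 8 highest or lowest of the still and newly changed genes at the same read number, or (d) the 10 called genes with the largest PAS change at 200 reads in each library. Genes called in the opposite direction at an earlier time, and the motif of metal response, were added after values were seen. Alternatives were other scalings, limits, read numbers, single count columns, the NT columns of the RC4 table and left-out gene groups. Some list members are not reported here by name.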

Additional observations from a re-analysis of the deposited data

Results flagged for a closer look

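A handful of genes were past 2-fold on one side of NT at AS or RC4 and past 2-fold on the other side at RC8, and the difference between the time points was not tested, since each has 1 library. Ubb, a polyubiquitin gene, was at log2 -1.09 at RC8 after 1.25 at RC4. Gm1821, a pseudogene in GENCODE vM1, was at -1.27 after 1.09, and reads of a like gene cannot be told apart here. In plain RPM neither Ubb nor Gm1821 reached 2-fold at RC4. Ereg was at -1.5 at RC8 after 1.31 at RC4. Dusp1, a phosphatase of MAP kinases, was at -1.05 at RC8, -0.05 at RC4 and 1.22 in AS. Gm22579 was at -1.46 at RC8 after 1.1 in AS. In the other direction, Osr1, a transcription factor of mesenchyme, had 33.9, 34.2, 9.96 and 70.8 RPM in the order NT, AS, RC4, RC8, a log2 ratio of 1.06 at RC8 after -1.47 at RC4. Fbxl19 was at 1.11 at RC8 after -1.03 at RC4. None of these genes had 0 reads in a count column of the RC8 table.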

How the results depend on the processing

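Of 72 alternative values, 41 stayed within the range set for a like value and 31 did not. From RPM without the median gene step, still lower genes numbered 170, and still and newly changed genes changed places in both directions. With 200 reads or more in both libraries, 168 genes were higher and 235 lower, 104 still higher, 68 still lower, 54 newly higher and 146 newly lower. A 1.5-fold limit gave 1163, 1265, 531, 474, 461 and 611 genes in this order, and a 3-fold limit 50, 71, 35, 19, 6 and 46. Where the counting interval had to lie beyond 2-fold, 168 genes were higher and 216 lower, 108 still higher, 82 still lower, 47 newly higher and 117 newly lower. The range for a like value was wide, since the 108 and 82 genes, against 158 and 110, counted as within it. Newly changed genes within 1.5-fold in AS and RC4 numbered 52 and 118. The percent of genes with a PAS change, 33.2% of called and 26.9% of all genes, was 10.5% and 4.97% at 20 points and 61.3% and 57.7% at 5 points. For all genes it was 25.3% at 200 reads and 29.2% with PASs of a fraction of at least 0.1. Calls with TMM or upper quartile scaling, either count column and the NT columns of the RC4 table ranged from 286 to 348 higher and from 347 to 372 lower genes. Leaving out genes with a 0 count column left 261 higher and 337 lower genes. For still and newly changed genes this alternative, as well as leaving out pseudogenes and genes sharing a PAS, was chosen after seeing the data. No paired analysis was possible because each condition has 1 library. Genes near 50 reads, and any spread between cultures, are beyond what these counts can resolve.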
